A study of Drosophila melanogaster with 4 samples.

Results

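The genes of the proteasome were described across 4 RNA-seq libraries of BG3 cells, a Drosophila melanogaster line from the larval central nervous system. Members were the rows whose symbol starts with Prosalpha, Prosbeta, Rpn or Rpt followed by a digit, which gave 36 of the 8806 rows for genes and transposable element families. They comprised 14 canonical subunits of the core (7 Prosalpha and 7 Prosbeta), 18 of the regulatory particle (6 Rpt and 12 Rpn) and 4 paralogs whose name carries the suffix R, that is Rpt6R, Rpt3R, Rpt4R and Prosbeta2R2. The annotation lists 16 paralogs with a T or R suffix (4 T and 12 R), and the other 12, among them every T gene, were not analysed here. The control cells, labelled as wild type, had received dsRNA against Brown, an eye pigment gene, and the knockdown cells dsRNA against Cap-H2, a subunit of condensin II. Cells of both groups took up 20 µg of dsRNA in serum-free medium over 30 min, then grew for 4 days, and each group gave 2 libraries. Nothing in the labels states that libraries with the same dsRNA were grown separately, so p-values measure only the spread between these libraries, which may be technical.

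The proteasome is the protease that degrades ubiquitin-tagged proteins in the cytosol and nucleus. Its core is a barrel in which rings of Prosalpha subunits form the gate and rings of Prosbeta subunits hold the proteolytic sites, formed by Prosbeta1 (caspase-like), Prosbeta2 (trypsin-like) and Prosbeta5 (chymotrypsin-like). The regulatory particle caps the barrel: a base with a ring of Rpt ATPases unfolds the substrate and feeds it into the core, and the Rpn subunits act as scaffolds, as ubiquitin receptors (Rpn1, Rpn10 and Rpn13) or, in the lid, as the deubiquitinase Rpn11. Each canonical subunit takes the same number of places per core or per cap, and in flies several subunits have paralogs that are known for expression in the male germ line.

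Depth ran from 21539511 to 21935781 assigned reads per library. Cap-H2 stood at 880 and 873 normalized reads in control libraries 1 and 2 and at 543 and 555 in knockdown libraries 1 and 2, or 62.7% of the control, so the knockdown was partial at the RNA level and the protein was not measured. Of 10 neural marker genes 8 had a row, with elav at 531 to 577 normalized reads and the synaptic genes nSyb and brp between 1.97 and 4.00. Of 6 haemocyte markers 5 had a row, with srp at 5928 to 6374 normalized reads, Hml at 221 to 339 and NimC1 at 5.98 to 7.87. Of the 4 tested 0 passed the threshold, and 4 had negative log2 fold changes. An unadjusted limma p under 0.05 was found for 2 of the 4, against 8.13% of all tested rows. These were Hml (log2 fold change -0.44, adjusted p = 0.10) and Ppn (-0.14, adjusted p = 0.23), both lower in the knockdown. The summed level of the 5 haemocyte markers, most of it Ppn, came to 82847 and 84876 in the control. In the knockdown it came to 72777 and 80354, and its part in any result below was not tested.

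All canonical proteasome genes were detected in every library, with means above those of most rows. Normalized read counts, which are reads divided by the authors' size factor of each library, ran from 1357 to 5626 over the 32 genes and 4 libraries. The lowest gene by its mean, Rpn12, stood above 73.0% of all rows, and the highest, Rpn1, above 93.1%. Together the 32 genes took 0.405% ± 0.00763 of assigned reads under Brown dsRNA and 0.391% ± 0.00488 under Cap-H2 dsRNA (SD, n = 2 each). By library this share was 0.399% and 0.410% in the control and 0.394% and 0.388% in the knockdown, with no overlap. Their summed normalized counts did overlap between the groups, at 85184 and 88350 in the control and 86281 and 85631 in the knockdown. The separation of the groups therefore depended on scaling by assigned reads or by size factor. At this depth counting error alone gives a gene of this group a median SD of 0.03 on the log2 scale within a library. The 32 genes are spread over 5 chromosome arms, with 10 on 2R, 9 on 3R, 5 on 3L, 4 on 2L and 4 on X (dm6 coordinates).

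**Figure D1:**
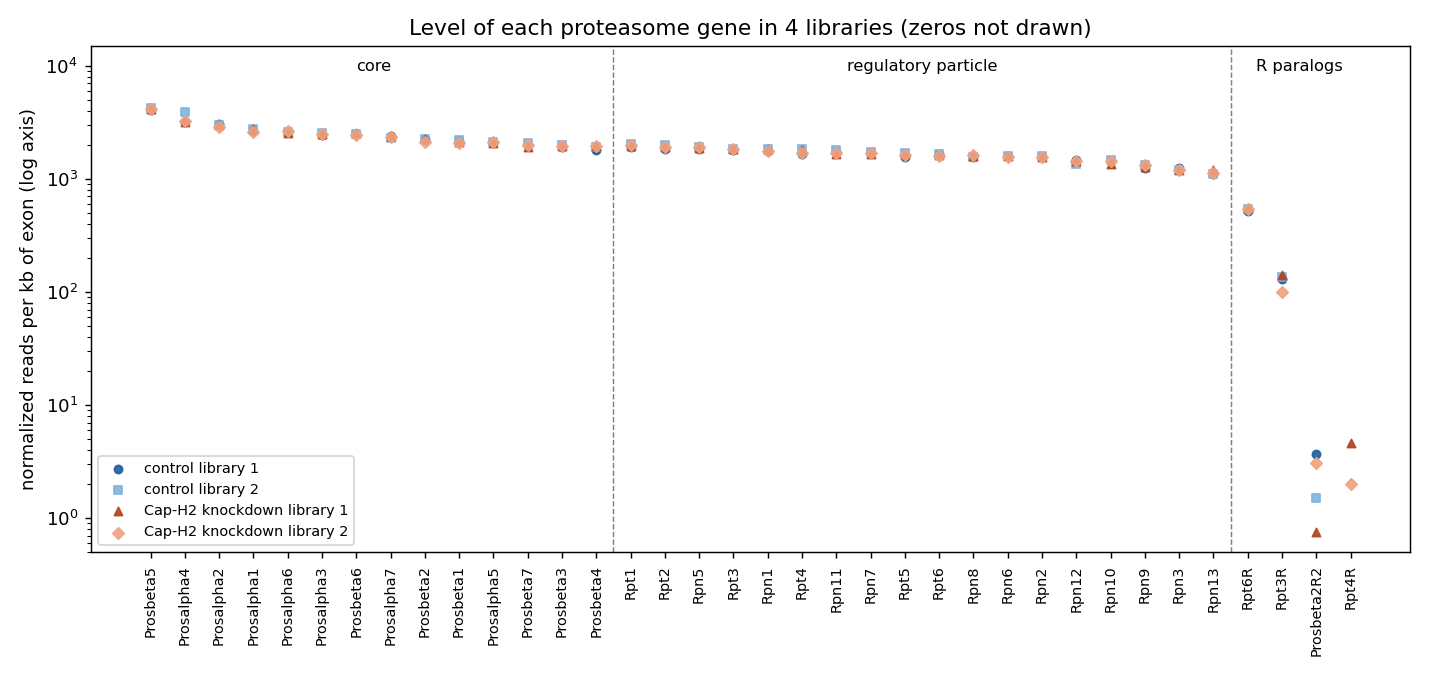
Level of each proteasome gene as normalized reads per kb of exon (log axis), with 1 symbol per library and values of 0 not drawn. The 32 canonical genes lie between 1105 and 4219, the core above most of the regulatory particle, while Rpt6R and Rpt3R lie lower and Prosbeta2R2 and Rpt4R near a few reads.

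Levels are compared between genes as normalized reads per kb of exon. Within the core Prosbeta5, which carries the chymotrypsin-like site, was the highest member by this measure, at 4059 and 4219 per kb in the control and 4133 and 4118 in the knockdown. It lay above every other core gene in all 4 libraries, while per kb of coding length Prosalpha4 was highest in control library 2 and Prosbeta5 in the other libraries. The other catalytic subunits, Prosbeta2 and Prosbeta1, averaged 2222 ± 57.3 and 2143 ± 50.3 per kb (SD over the 4 libraries), and their ranges overlapped. The lowest core gene was Prosbeta4, a structural beta subunit, at 1902 ± 77.9 per kb. Among the alpha subunits the level ran from 2104 ± 22.1 per kb for Prosalpha5 to 3376 ± 330 for Prosalpha4. The order of the core was Prosbeta5, Prosalpha4, Prosalpha2, Prosalpha1, Prosalpha6, Prosalpha3, Prosbeta6, Prosalpha7, Prosbeta2, Prosbeta1, Prosalpha5, Prosbeta7, Prosbeta3 and Prosbeta4. Of its 13 neighbouring pairs 6 had ranges over the libraries that were apart and 7 overlapped.

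The regulatory particle was more even. Rpt1, an ATPase of the base, led with 1898 and 2032 per kb in the control and 1962 and 2015 in the knockdown, although per kb of coding length Rpn5, a scaffold subunit of the lid, had the higher mean (2383 against 2306). Rpn13, the ubiquitin receptor that also anchors a deubiquitinase, was lowest per kb of exon with 1118 and 1105 in the control and 1202 and 1121 in the knockdown. The 6 ATPases differed least: the highest exceeded the lowest by at most 1.25-fold in any library, against 2.12-fold to 2.27-fold among the 7 beta subunits and 1.52-fold to 1.82-fold among the 7 alpha subunits. The order ran from Rpt1 through Rpt2, Rpn5, Rpt3, Rpn1, Rpt4, Rpn11, Rpn7, Rpt5, Rpt6, Rpn8, Rpn6, Rpn2, Rpn12, Rpn10, Rpn9 and Rpn3 to Rpn13, and 13 of its 17 neighbouring pairs overlapped. The 8 Rpn genes of the lid had medians from 1570 to 1590 per kb over the libraries, and the 4 Rpn genes of the base (Rpn1, Rpn2, Rpn10 and Rpn13) from 1466 to 1524. For scale, the highest gene exceeded the lowest by 1.63-fold to 1.84-fold over the 18 genes of the regulatory particle and by 3.44-fold to 3.82-fold over all 32 canonical genes. It did so by 1.60-fold to 1.70-fold over the 8 CCT genes of the cytosolic chaperonin and by 3.62-fold to 4.04-fold over 8 genes of the COP9 signalosome, a complex related to the lid. These spreads are descriptions with no test, over sets of unequal size.

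Core genes stood above regulatory particle genes per kb in every library. The median of the core stood at 2431 and 2402 per kb in the control and 2436 and 2392 in the knockdown, against 1616, 1691, 1642 and 1628 for the regulatory particle in the same order. The ratio of these medians was 1.46 ± 0.0597 for control libraries and 1.48 ± 0.0107 for knockdown libraries (SD, n = 2 each), so the groups differed by less than the spread of the control. By mean level 12 of the 14 core genes exceeded Rpt1, the highest of the regulatory particle, and Prosbeta3 and Prosbeta4 did not. The ratio of summed levels came to 1.224 and 1.231 in the control and to 1.213 and 1.208 in the knockdown. Both knockdown libraries thus lay below both control libraries, but this order depended on Prosalpha4. That core gene was high in a single library, control library 2, at 3871 per kb, and ran from 3197 to 3226 per kb elsewhere. With Prosalpha4 left out of the core sum the groups overlap. The ratio of summed levels is given as a description, with no test.

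**Figure D2:**
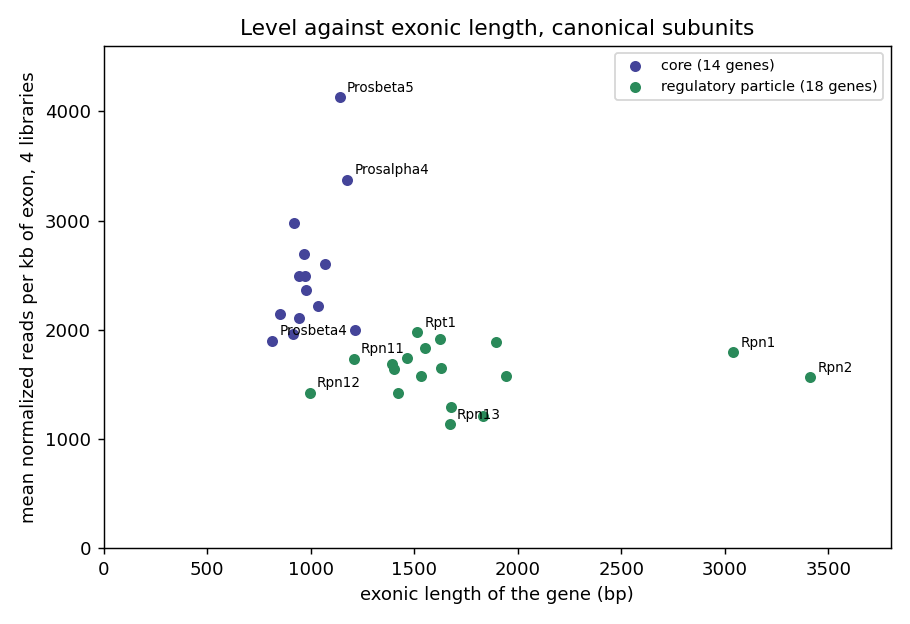
Mean level over the 4 libraries (normalized reads per kb of exon) against exonic length in bp for the 14 core and 18 regulatory particle genes. The core genes are 815 to 1215 bp long and the regulatory particle genes 995 to 3412 bp, and in the shared range Rpn11 and Rpn12 lie below the core genes.

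Core genes are also shorter, which moves with this difference. Their exonic length had a median of 971 bp, against 1589 bp for the regulatory particle. Over all tested protein-coding genes the median level was 370 per kb for the 897 genes of the core's length range. It was 316 per kb for the 4277 genes of the regulatory particle's range, a ratio of 1.17, against 1.47 for the proteasome over the 4 libraries. These length ranges overlap and were not matched to the median lengths of the members. The part of length in the difference between core and regulatory particle was not tested. The 2 regulatory genes within the core's length range, Rpn11 and Rpn12, stood at 1734 ± 62.9 and 1424 ± 42.2 per kb (SD over the 4 libraries), below the mean of each of the 14 core genes. With coding length in place of exonic length the ratio was 1.49, and the lowest core gene, Prosbeta4 (2571 per coding kb), then exceeded the highest regulatory gene, Rpn5 (2383).

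The knockdown was then compared with the control gene by gene. None of the proteasome genes differed between the groups by the test: 0 of the 34 tested members passed an adjusted p of 0.05 in limma, where 0.39% of the 7690 tested rows did, and edgeR and DESeq2 on the recovered reads also called 0, with no adjusted p from DESeq2 for 3 of the 34. An unadjusted p under 0.05 was found for 1 member, Prosalpha4, against 8.13% of all rows. The median log2 fold change of the 34 was -0.0045, beside -0.00014 over all tested rows. The remaining 2 members, Rpt4R and Prosbeta2R2, had a mean below 10 normalized reads and were not tested.

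A missed threshold does not show equality, so the intervals matter here. For all 32 canonical genes the 95% interval of the limma fold change lay within 1.2-fold in either direction, against 63.5% of all tested rows. For 25 of the 32 it lay within 1.1-fold, against 1959 of the 7690 tested rows. The widest reached from -0.25 (Prosalpha4) on the lower side to 0.17 (Prosbeta4) on the upper side, and the median half-width was 0.09. The canonical genes are abundant, and among the 1774 rows of the same level (means from 1417 to 5465 normalized reads) 98.9% had an interval within 1.2-fold. The median absolute log2 fold change was 0.016 over the 32 canonical genes, 0.034 over those 1774 rows and 0.057 over all tested rows, given as a description with no test.

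**Figure D3:**
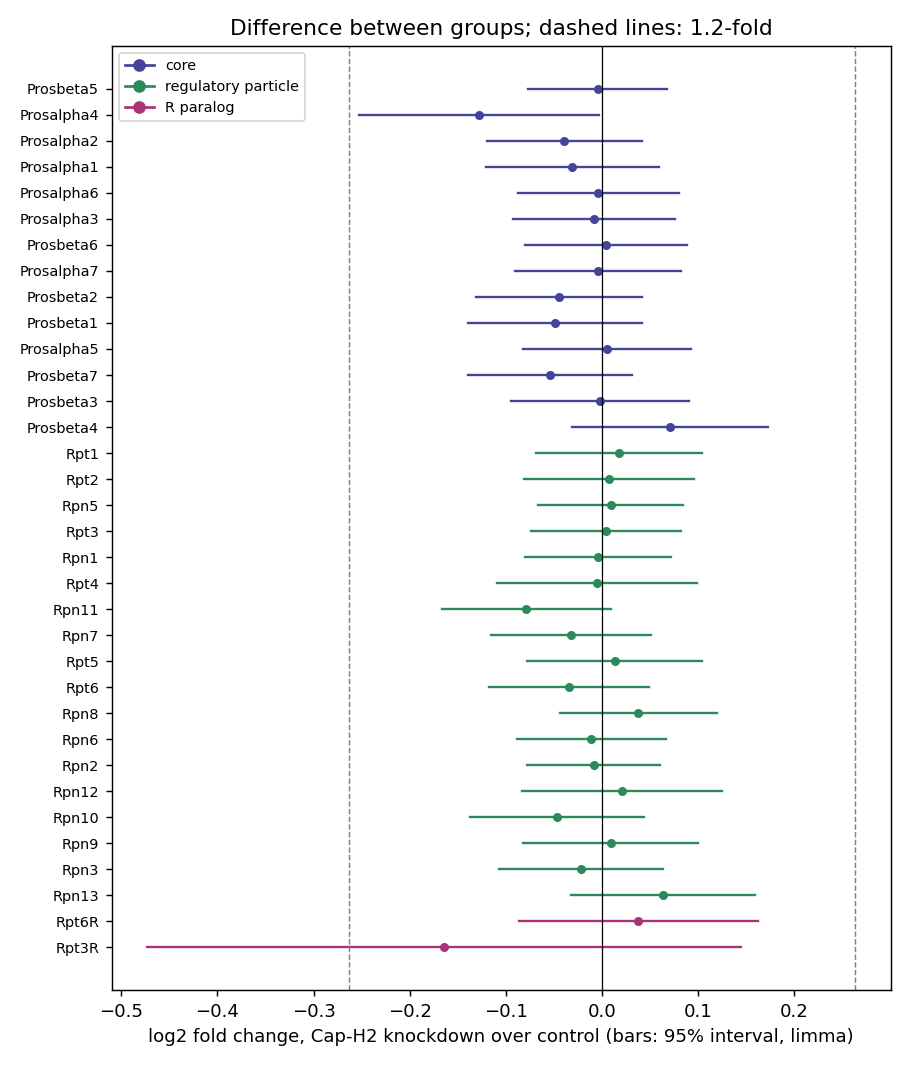
Log2 fold change of Cap-H2 knockdown over control for the 34 tested members, with bars for the 95% interval from limma and dashed lines at a 1.2-fold change. Every canonical gene has its bar between the dashed lines, the bar of Prosalpha4 excludes 0 before adjustment, and that of Rpt3R, the least abundant tested gene, reaches -0.47.

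In the alpha ring the median log2 fold change was -0.008, and 6 of 7 values were negative, against 3854 of the 7690 tested rows. With median centring the median of the members was 0.0098, so the signs of such small values depend on the normalization. Prosalpha4 (FBgn0004066, dm6 chromosome X, 16276270 to 16277587, plus strand, protein-coding) had normalized read counts of 3760 and 4552 in control libraries 1 and 2 and 3776 and 3794 in knockdown libraries 1 and 2. Control library 2 stood apart, at 1.21 times the mean of the other 3 libraries, which ran from 3760 to 3794, and the groups overlapped. The limma estimate was -0.13 on the log2 scale (SE 0.06, adjusted p = 0.61). Without control library 2 it was 0.0097 (adjusted p = 0.98), and without control library 1 it was -0.27 and passed (adjusted p = 1.8e-06), so the value turned on which control library was kept. The log2 difference of 0.28 between the control libraries was the largest among the canonical genes, with Rpt4 next at 0.16, and 8 of the 1774 rows of the same level (0.451%) reached it.

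The other alpha subunits with the smallest p-values were Prosalpha2 and Prosalpha1. Prosalpha2 had 2789 and 2774 normalized reads in the control and 2747 and 2667 in the knockdown, so both knockdown libraries were lower (log2 fold change -0.04, SE 0.04, adjusted p = 0.83). Prosalpha1 had 2568 and 2703 against 2655 and 2504, with overlapping groups (log2 fold change -0.03, SE 0.04, adjusted p = 0.89). Of the 7 alpha genes 1 had groups that did not overlap, against 38.7% of all tested rows.

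In the beta ring the median log2 fold change was -0.0044, with 5 of 7 values negative. Groups did not overlap for 4 of the 7, against 38.7% of all tested rows. Prosbeta4 (FBgn0032596, chromosome 2L, 16731180 to 16732133) was the highest, with 1456 and 1570 normalized reads in the control and 1595 and 1580 in the knockdown (log2 fold change 0.07, SE 0.05, adjusted p = 0.75). Prosbeta7, another structural subunit, had 2435 and 2513 against 2341 and 2423 (-0.05, SE 0.04, adjusted p = 0.77). In both genes the groups were narrowly apart, with the knockdown higher for Prosbeta4 and lower for Prosbeta7.

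The catalytic subunits did not pass either. Prosbeta1 stood at 1835 and 1879 normalized reads in the control and 1815 and 1776 in the knockdown (log2 fold change -0.05, SE 0.04, adjusted p = 0.82). Prosbeta2 stood at 2311 and 2355 against 2309 and 2214 (-0.04, SE 0.04, adjusted p = 0.82). Prosbeta5 stood at 4623 and 4806 against 4708 and 4691 (-0.0044, SE 0.03, adjusted p = 0.99). The knockdown libraries of Prosbeta1 and Prosbeta2 both lay below their controls, those of Prosbeta5 between them.

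The Rpt ATPases had a median log2 fold change of 0.0055 with 4 of 6 values positive. Groups did not overlap for 1 of the 6, against 38.7% of all tested rows. That gene, Rpt6, had 2316 and 2345 normalized reads in the control and 2291 and 2260 in the knockdown (log2 fold change -0.03, SE 0.04, adjusted p = 0.86). Rpt1 had 2875 and 3079 against 2972 and 3053 (0.02, SE 0.04, adjusted p = 0.95). Rpt5 had 2565 and 2784 against 2726 and 2668 (0.01, SE 0.04, adjusted p = 0.97). In Rpt1 and Rpt5, as in Rpt2, Rpt3 and Rpt4, both knockdown libraries fell between the control libraries.

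Among the 12 Rpn genes the median log2 fold change was -0.0067, with 7 values negative. Groups did not overlap for 4 of the 12, against 38.7% of all tested rows. Rpn11 (FBgn0028694, chromosome 2L, 5058404 to 5059790), the deubiquitinase of the lid, had 2110 and 2195 normalized reads in the control and 2021 and 2054 in the knockdown. Both knockdown libraries were lower, and its value of -0.08 on the log2 scale (SE 0.04, adjusted p = 0.65) was the most negative of the regulatory particle. The ubiquitin receptor Rpn13 had 1869 and 1848 against 2010 and 1874 (log2 fold change 0.06, SE 0.05, adjusted p = 0.76), the most positive there. The receptor Rpn10 had 2033 and 2076 against 1938 and 2040, with groups that overlapped (-0.05, SE 0.04, adjusted p = 0.82).

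Counts of separated groups were read against their background. Groups were fully apart, with no overlap between libraries, in 11 of the 34 tested members, 4 with the knockdown higher and 7 with it lower. Over all tested rows this held for 38.7%, with 19.2% higher and 19.5% lower, so the share of members was near that of all rows. By part, the median log2 fold change was -0.0062 over the 14 core genes and -0.00024 over the 18 genes of the regulatory particle. The difference of these medians, core minus regulatory particle, was -0.006 with all libraries and from -0.021 to -0.0042 when a library was left out.

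The members also differed between libraries of the same group. The median over the tested members of library 2 minus library 1 on the log2 scale was 0.04 for the control pair and -0.01 for the knockdown pair, beside 0.002 and -0.000068 over all tested rows. Control library 2 exceeded control library 1 in 27 of the 34, against 3906 of the 7690 tested rows. The 27 included all 6 canonical Rpt ATPases, which had a median of 0.11. Knockdown library 2 exceeded library 1 in 13 of the 34, against 3844 of the 7690 tested rows. As a deviation from each gene's own mean, the median of the 32 canonical genes came to -0.017 and 0.029 in the control and to 0.0014 and -0.0069 in the knockdown, so both knockdown libraries lay between the controls. The median log2 fold change of the tested members was -0.03 without control library 1 and 0.0089 without control library 2. The 8 CCT genes also stood higher in control library 2, all 8 of them, with a median of 0.06.

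**Figure D4:**
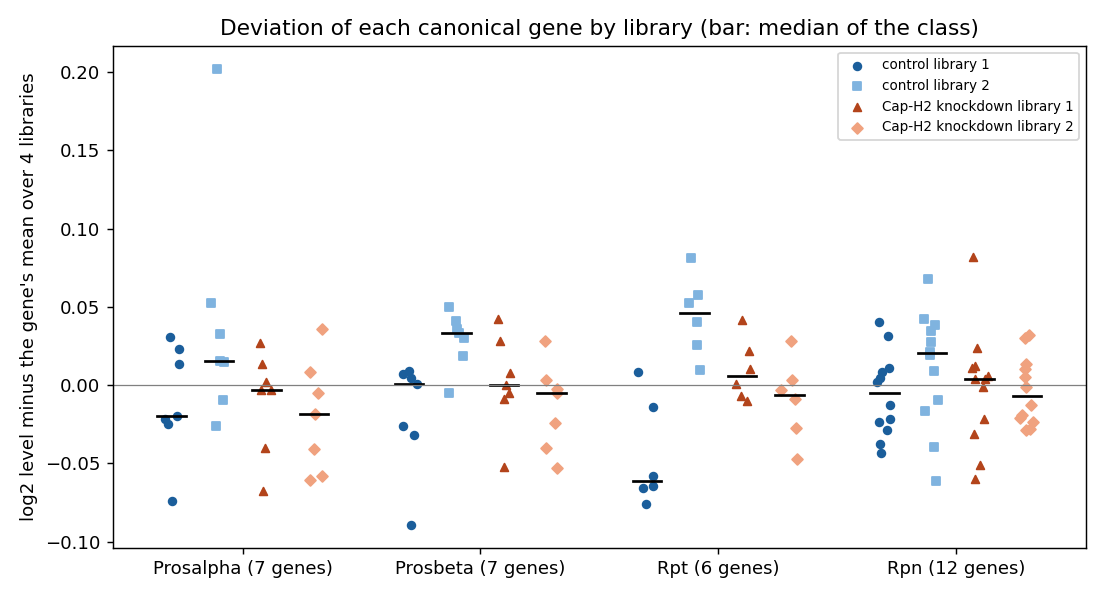
Log2 level of each canonical gene minus its mean over the 4 libraries, by class and library, with a bar for the median of the class. Control library 2 has the highest median in all 4 classes, most clearly for the Rpt genes (0.05 against -0.06 in control library 1), and the single point near 0.20 is Prosalpha4.

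Of the paralogs, Rpt6R and Rpt3R were detected in every library, with at least 142 reads. Rpt6R (FBgn0039788, chromosome 3R, 30582198 to 30583697, minus strand) had 757 and 783 normalized reads in the control and 795 and 786 in the knockdown. Per kb of exon this was 32.1% ± 0.506 of the level of Rpt6, its canonical partner, under Brown dsRNA and 33.7% ± 0.0608 under Cap-H2 dsRNA (SD, n = 2 each). Both knockdown libraries exceeded both control libraries, and the log2 fold change was 0.04 (SE 0.06, 95% interval from -0.09 to 0.16, adjusted p = 0.91). Rpt6R stood above 60.1% of all rows by its mean.

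Rpt3R (FBgn0037742, chromosome 3R, 9754735 to 9756510, minus strand) had 190 and 197 normalized reads in the control and 206 and 144 in the knockdown. Knockdown library 2 was the low one, at 5.40% of the level of Rpt3 per kb, against 7.19%, 7.34% and 7.74% in the other libraries. Rpt3 itself had 2824, 2870, 2853 and 2857 normalized reads in control libraries 1 and 2 and knockdown libraries 1 and 2, and Rpt4 had 2424, 2702, 2628 and 2472. The log2 fold change of Rpt3R was -0.16 (SE 0.15, 95% interval from -0.47 to 0.14, adjusted p = 0.82), and it moved to -0.42 when knockdown library 1 was left out and to 0.09 when knockdown library 2 was. Its reads in the knockdown libraries, 207 and 142, had exact Poisson 95% intervals that did not overlap (179.8 to 237.2 and 119.6 to 167.4, counting error only). By its mean Rpt3R stood above 32.5% of all rows.

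Rpt4R and Prosbeta2R2 were at the edge of detection. Rpt4R had 0 reads in both control libraries, which allows up to 3 reads over the group, and 7 and 3 reads in knockdown libraries 1 and 2 (exact Poisson 95% intervals 2.81 to 14.4 and 0.619 to 8.77, counting error only). Against that limit the 10 reads of the knockdown are at least 3.33-fold higher, a ratio that leaves out the counting error of the 10 reads themselves, and per kb they are 0.259% and 0.120% of the level of Rpt4. With no minimum on the mean, limma gave Rpt4R an adjusted p of 0.50 (unadjusted p = 0.012). Prosbeta2R2 had 5 and 2 reads in the control and 1 and 4 in the knockdown, which overlap, and at most 0.167% of the level of Prosbeta2 per kb.

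Of 16 genes listed as markers of the testis and germ line 5 had a row, and 0 of the 5 passed the threshold. The meiotic arrest gene mia was highest among them, at 346 to 405 normalized reads, followed by the phosphatase gene twe at 113 to 138 and bol at 59.0 to 78.2, while bam reached at most 23.6 and vas at most 17.9. They summed to 598 and 571 normalized reads in the control and to 648 and 583 in the knockdown, most of it mia. Both knockdown libraries exceeded both control libraries for 3 of the 5, against 19.2% of all tested rows. These were twe, bol and vas (log2 fold changes 0.20, 0.29 and 0.79, limma adjusted p from 0.67 to 0.76). The groups of mia and bam overlapped, with log2 fold changes of -0.017 and -0.32. Reads that align to a paralog and its partner alike had been set apart in a row for alignments that were not unique, so counts of paralogs may miss reads. Exons of 14 members share bases with a gene on the opposite strand, at most 15.7% of a member's exonic length (Rpn9), and the strand setting of the counting is not known here.

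None of the genes that assemble, activate or regulate the proteasome passed the threshold either. Of 11 listed, 11 were tested and 0 passed, with a median log2 fold change of 0.0048. The lowest p-value belonged to cnc, the fly member of the transcription factor family whose mammalian member Nrf1 induces proteasome genes. It had 2100 and 2078 normalized reads in the control and 2182 and 2282 in the knockdown, so both knockdown libraries were higher (log2 fold change 0.10, SE 0.04, adjusted p = 0.57). The values of rngo, a homolog of the protease Ddi1, and of PI31, a proteasome-binding regulator, were both 0.07 (SE 0.04 and 0.05, adjusted p = 0.68 and 0.76). Pomp and Sem1 lie outside the rule for named genes and were picked after their values were seen. Pomp, the assembly chaperone, stood at 2006, 2086, 2062 and 2039 normalized reads in control libraries 1 and 2 and knockdown libraries 1 and 2, and Sem1, a small subunit of the lid, at 1226, 1214, 1292 and 1207.

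Ubiquitin genes and shuttle factors did not pass either. Of 11 listed 10 were tested and 0 passed, with a median of 0.01 and 8 positive values. The autophagy and ubiquitin adaptor ref(2)P had 6635 and 7312 normalized reads against 7174 and 7607 (log2 fold change 0.08, SE 0.04, adjusted p = 0.62). Without control library 2 the log2 fold change of ref(2)P was 0.16, and without control library 1 it was 0.015. Its size therefore turned on which control library was kept. Rad23, which carries ubiquitinated proteins to the proteasome, had -0.05 (SE 0.04, adjusted p = 0.77), and RpS27A, a ribosomal protein made as a fusion with ubiquitin, 0.04 (SE 0.03, adjusted p = 0.80).

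The COP9 signalosome, which removes Nedd8 from cullin ubiquitin ligases, and the CCT chaperonin, which folds actin and tubulin, were taken for comparison. Of the 8 tested signalosome genes 0 passed, with a median of -0.03, and the smallest p-values were those of CSN1b (-0.13, SE 0.05, adjusted p = 0.50), CSN6 (-0.09, SE 0.06, adjusted p = 0.71) and CSN5 (-0.07, SE 0.05, adjusted p = 0.75). Of the 8 CCT genes 0 passed, with a median of 0.0089, and those with the smallest p-values were CCT6 (0.05, SE 0.03), CCT4 (0.04, SE 0.03) and CCT7 (-0.03, SE 0.03), with adjusted p from 0.77 to 0.86. No test of a difference between these complexes and the proteasome was made.

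The authors' deposited table called none of the 36 members. Its adjusted p was 0.999 for each of them, and its log2 fold changes ran from -0.0018 to 0.0013, much closer to 0 than the ratios computed from the deposited normalized counts. How the authors estimated these fold changes is not known here. The measures may therefore be unlike, and the gap does not show that the authors found smaller changes. Rpt4R, with 10 reads in all, was the only member with an unadjusted p under 0.05 in the authors' deposited table (p = 0.022).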

How the data were processed

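RNA from 2 control and 2 Cap-H2 knockdown libraries was sequenced after preparation with a stranded mRNA kit, per the labels' protocols. Tools listed in the submitters' processing notes are fastp, HISAT2 and HTSeq, with dm6 as the build. Their versions, the annotation, the strand setting and the tool behind the size factors are not stated. The authors deposited normalized read counts per library, a signal made of counts divided by a size factor. Each column divided by its smallest step gave whole reads for 100% of values (tolerance 0.001 reads). HTSeq's summary rows of unassigned reads, 11.5% to 13.9% of reads, stayed out. The authors also deposited log2 fold changes and p-values, quoted only as theirs.

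Members matched the Ensembl annotation BDGP6.54 (dm6 coordinates) by symbol. Levels per kb used the union of exons.

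The groups were compared with limma 3.58.1 in R 4.3.3 (trended empirical Bayes; two-sided p). Values were log2(normalized count + 1), the rows were the 7690 whose mean reached 10, and Benjamini-Hochberg adjustment at 0.05 covered all of them. Log2 fold changes on this scale understate changes of low genes. There were 2 residual and 14.4 prior degrees of freedom. Alternatives included edgeR 4.0.16 and DESeq2 1.42.0 on the recovered reads. The fit was tested on simulated data.

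Members and lists were chosen with earlier results of these data known. Full statistics are given for the 3 smallest p-values of each class and related list, the catalytic subunits, the paralogs with a row and the extremes of level. The split of the Rpn genes into lid and base was added after the data were seen.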

Additional observations from a re-analysis of the deposited data

How the results depend on the processing

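With all libraries no setting called a proteasome gene, except the replicate block, which called 1 (Prosalpha4, adjusted p = 0.026) and 146 rows in all. Over all tested rows the library differences of the groups were nearly uncorrelated (-0.03), so no shared effect of the replicate number was seen. That value does not settle whether same-numbered libraries were prepared together. Over all rows 30 were called, against 14 with quantile normalization, 59 with robust empirical Bayes and 43 to 127 with a library left out. The members called were 0 or 1 with a library left out, the 1 being Prosalpha4 without control library 1. The median log2 fold change of the members then ran from -0.033 to 0.0089 (0.0098 with median centring). Core minus regulatory particle ran from -0.0208 to -0.0042 (-0.0024 with quantile normalization). Cap-H2 passed in all 14 alternatives that gave it an adjusted p, from -0.69 to -0.65. DESeq2 gave no adjusted p for 7 of 31 named genes, Cap-H2 among them, nor for 5367 of the 7690 tested rows. The unadjusted DESeq2 p of Cap-H2 was 1.4e-11.

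Some log2 fold changes turned sign. With median centring Prosbeta5 stood at 0.0099 and Rpt4 at 0.0087, and with quantile normalization Rpt3 at -0.011. With a library left out the ranges were -0.27 to 0.0097 for Prosalpha4, -0.074 to 0.011 for Prosalpha1, -0.032 to 0.024 for Prosbeta5, -0.032 to 0.067 for Rpt1, -0.0076 to 0.016 for Rpt3, -0.084 to 0.073 for Rpt4, -0.046 to 0.072 for Rpt5, -0.42 to 0.093 for Rpt3R, -0.062 to 0.0060 for CCT7 and -0.11 to 0.0020 for Rad23. The cause was not tested. Fits with a lone library in a group took its spread from the other group. Depth limits Rpt4R and Prosbeta2R2.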
